A study of Mus musculus with 60 samples.

Results

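The genes described here are 36 genes of integrins and focal adhesion proteins, taken as a list of symbols (11 integrin alpha subunits, 5 integrin beta subunits and 20 proteins of the adhesion plaque) from the 39756 genes of the culture table. Of the 36 genes, 31 had a mean of at least 1 TPM (abundance per gene length, scaled to the same total in each library) over the 48 libraries and entered the tests. The other 5 (Itga1, Itga2, Itga8, Itga9 and Itga11) are all alpha subunits.

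Integrins are receptors of the cell surface, each built from 1 alpha and 1 beta subunit, that bind extracellular matrix outside the cell. Inside the cell, talins and kindlins bind the tails of beta subunits and switch integrins on, vinculin and alpha-actinins link talin to actin, and integrin-linked kinase (Ilk) forms a complex with PINCH (Lims) and parvin proteins. Paxillin, the protein that the study targets, is an adaptor of the same plaques. In brain, adhesion of this kind takes part in the migration of neurons, the growth of axons and the attachment of glial endfeet.

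Cortical cultures were labelled as prepared from E18 mouse embryos and received, on the second day in vitro, either paxillin siRNA (a pool, PXN) or a scrambled control siRNA (SC), with or without 20 ng/ml of the neurotrophin BDNF. They were collected on day in vitro (DIV) 3, 5 or 10. At DIV3, there were 3 libraries of SC, 5 of PXN, 3 of SC with BDNF and 4 of PXN with BDNF. In the same order, DIV5 had 4, 6, 4 and 5 libraries and DIV10 had 3, 4, 3 and 2. The 2 E15 libraries carry the labels of cortical neurons and WT genotype, with no day in vitro, siRNA or BDNF named. In the hippocampus, WT and S119A mice were sampled at P10, P15 and P21 with 2 libraries each. The S119A libraries are labelled as paxillin knockout together with S119A knock-in. Per the study's methods, tamoxifen, given before P10, acted through a Nestin-driven Cre, which brought out S119A paxillin and removed the floxed paxillin allele. Cells without this driver keep the floxed allele. The methods describe the controls as littermates. The study's appendix names the sequenced controls as carrying the same floxed and S119A alleles, with no Cre named, so WT is here the word of the labels. Cultures 10 and 11 held only paxillin siRNA libraries. The study describes its culture replicates as independent cultures and its hippocampus replicates as hippocampi, without saying for either that each came from its own animal or litter, so p-values measure the spread between such samples. In all these libraries fewer cells of a type cannot be told apart from less RNA per cell.

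Pxn, the targeted gene, was measured first. At DIV3, Pxn was at 9.16, 9.65 and 11.7 TPM with SC siRNA and at 8.02, 9.49, 11.4, 8.38 and 7.79 TPM with paxillin siRNA. These groups overlapped (log2 difference −0.16 ± 0.20 (SE), limma adjusted p = 1). At DIV5, Pxn was at 13.1, 19.9, 12.4 and 16.4 TPM with SC siRNA and between 8.43 and 9.83 TPM (median 9.11) with paxillin siRNA. Here the groups did not overlap, and Pxn fell by 0.67 on the log2 scale (SE 0.18, limma adjusted p = 0.0186). At DIV10, Pxn was at 8.99, 19.9 and 9.93 TPM with SC siRNA and at 18.8, 13.4, 13.2 and 11.5 TPM with paxillin siRNA, a log2 difference of 0.19 ± 0.21 (limma adjusted p = 0.609). The DIV5 call was lost after rescaling by median ratio size factors (log2 difference −0.58, limma adjusted p = 0.0565), in the fit of only the groups compared, without cultures 10 and 11, and without SC culture 2 or SC culture 4 (range −0.77 to −0.55 over single libraries). With BDNF at DIV5, Pxn was at 14.3, 17.9, 10.04 and 19.0 TPM with SC siRNA and at 8.74, 13.8, 12.8, 9.43 and 10.3 TPM with paxillin siRNA, groups that overlapped and were not past the threshold (log2 difference −0.42 ± 0.18, limma adjusted p = 0.207). Lower Pxn was therefore called in 1 of the 6 siRNA comparisons, and all groups are named here as the libraries are labelled.

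Some libraries stood apart. The summed level of 7 genes of dividing cells was between 12.9 and 38.0 TPM in 4 DIV10 libraries (SC culture 3, SC with BDNF culture 3, and PXN cultures 1 and 2) and between 138 and 265 TPM in the other 8. The same 4 libraries had summed levels of 9 astrocyte genes between 1121 and 2021 TPM, against 4496 to 9100 TPM in the other 8. In the E15 libraries 7 endothelial genes summed to 433 and 481 TPM, against 0.960 to 13.6 TPM in the cultures. Genes of vessels were therefore measured at E15 in libraries labelled as neurons. The summed level of 8 neuron genes was 2801 to 4655 TPM at DIV3, 1551 to 3826 TPM at DIV5 and 1809 to 2476 TPM in 8 of the DIV10 libraries. In the 4 that stood apart it was lower, at 527, 841, 1306 and 1634 TPM.

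Among the integrin subunits, Itgb1, which pairs with most alpha subunits, had the highest level, with a mean of 65.6 TPM and a range of 38.3 to 107 TPM over the 48 libraries. The next subunits by mean level were Itga3 (17.6 TPM) and Itga6 (16.1 TPM), both parts of laminin receptors. Itga7, another laminin receptor subunit, ranged from 0.845 to 40.1 TPM. Itgb5, Itgb8 and Itgav, which form receptors for RGD-containing ligands such as vitronectin and latent TGF-beta, had means of 6.44, 6.63 and 8.95 TPM. The subunits that failed the filter reached at most 2.46 TPM (Itga1, a collagen receptor subunit), 1.82 TPM (Itga9), 1.22 TPM (Itga2), 1.09 TPM (Itga8) and 0.868 TPM (Itga11) in any library.

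Among the plaque proteins, Ilk was at 141 to 260 TPM (mean 197 TPM), above all other members in mean level. Zyx, which encodes the actin regulator zyxin, followed with a mean of 55.8 TPM, but its highest value, 231 TPM, came from 1 of the 4 libraries low in dividing cell genes (PXN DIV10 culture 2). Actn4, an alpha-actinin, and Tln1, a talin, had means of 42.0 and 41.5 TPM, while Tln2, the other talin, had a mean of 3.89 TPM. Lims1 and Parva, partners of Ilk, were at means of 5.64 and 3.08 TPM, so the levels of genes whose proteins form 1 complex differed widely.

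**Figure D1:**
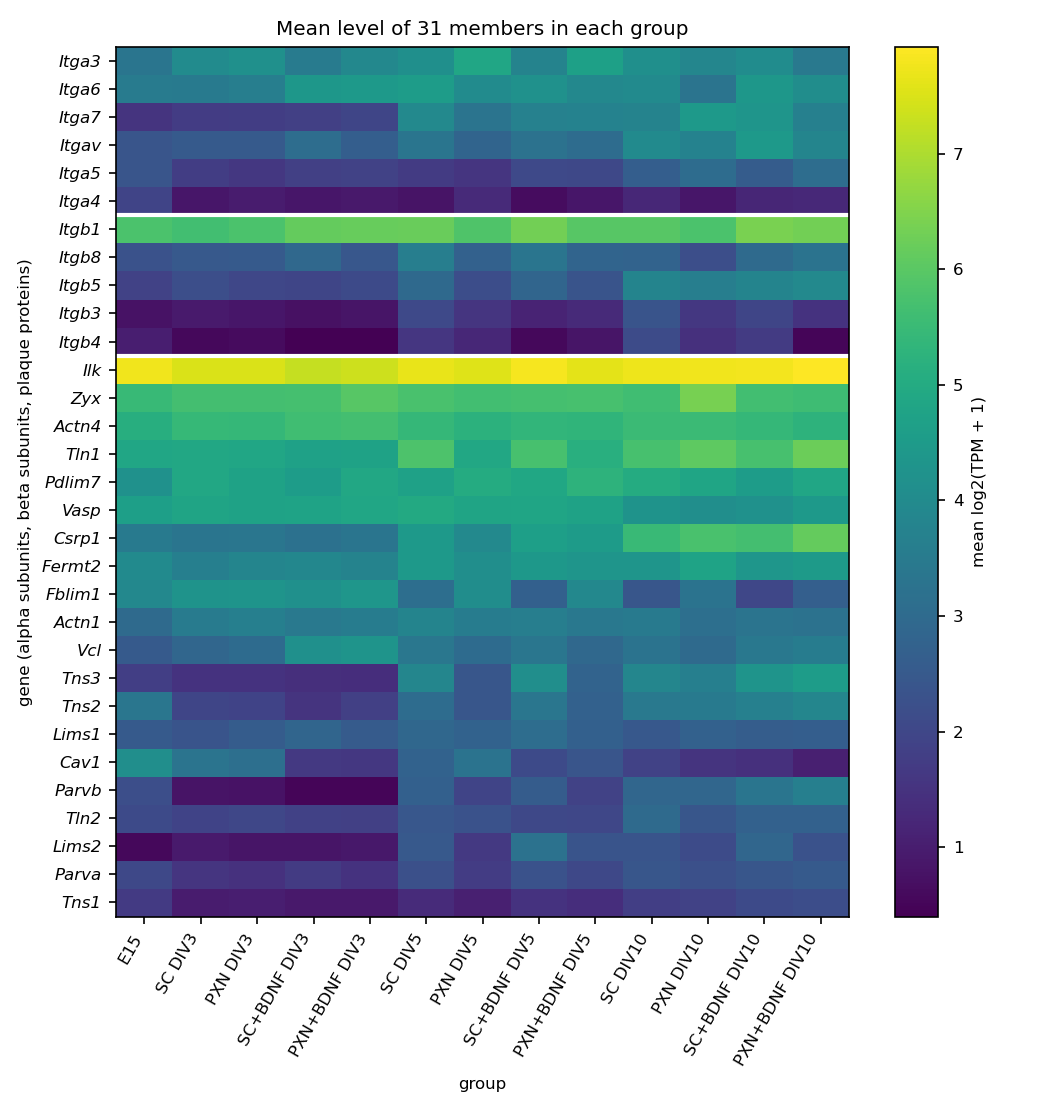
Mean log2(TPM + 1) of the 31 members that passed the filter (rows, by alpha subunits, beta subunits and plaque proteins, each ordered by mean level) in the 13 groups (columns). Ilk and Itgb1 are bright in every group, while Csrp1, Tns3, Itga7 and Parvb are darker at DIV3 than at DIV10.

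The comparison of DIV3 with E15 asks how the members differ between the E15 libraries, labelled as cortical neurons, and early culture. Of 31 members, 0 rose and 2 fell (6.45%), against 4.63% of all 14250 tested genes higher and 3.48% lower. Itga4, a receptor subunit for fibronectin and Vcam1, was at 1.88 and 4.21 TPM at E15 and at 1.04, 0.718 and 0.733 TPM at DIV3. Tns2, a tensin that links integrin tails to actin, was at 6.64 and 12.6 TPM at E15 and at 3.57, 2.53 and 2.75 TPM at DIV3. Both groups were apart for both genes, which fell by 1.09 (SE 0.22, limma adjusted p = 0.00207) and by 1.37 (SE 0.40, limma adjusted p = 0.0286) on the log2 scale. Without the second E15 library neither call was made, and Tns2 also lost its call without SC culture 2 or SC culture 3 at DIV3. The endothelial sums given above move with this comparison, and their part in it was not tested.

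From DIV3 to DIV10 in SC siRNA cultures, 16 of 31 members rose (51.6%) and 3 fell (9.68%), against 16.1% of all tested genes higher and 19.1% lower. The median log2 difference of the members was 0.66, against −0.04 over all tested genes. By role, 3 of 6 alpha subunits, 3 of 5 beta subunits and 10 of 20 plaque proteins rose, and the 3 that fell were plaque proteins. Without all 4 DIV10 libraries low in dividing cell genes (1 of them SC siRNA), again 16 rose and 3 fell, against 19.6% higher and 22.5% lower of all genes. Without that SC library alone, 14 rose and 3 fell, against 15.8% and 17.7%. When each of the 6 libraries was left out in turn, 14 of the 19 calls held in every fit. Those of Itga5 and Lims2 were each lost in 5 of the 6 fits, that of Vasp without SC culture 1 at DIV10 or SC culture 3 at DIV3, that of Fermt2 without SC culture 3 at DIV10, and that of Cav1 without SC culture 2 at DIV3.

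Csrp1, a LIM protein that binds alpha-actinin and zyxin, was at 9.83, 7.41 and 9.71 TPM at DIV3, at 15.2, 21.3, 19.0 and 29.5 TPM at DIV5 and at 51.8, 47.8 and 35.8 TPM at DIV10. No library of 1 day reached the range of another. Csrp1 rose 4.60-fold from DIV3 to DIV10 (log2 difference 2.20 ± 0.27, limma adjusted p = 1.7e-07), and it rose in both steps. Tns3, another tensin, was at 2.18, 2.22 and 1.25 TPM at DIV3 and at 17.9, 11.5 and 11.5 TPM at DIV10 (log2 difference 2.33 ± 0.54, limma adjusted p = 0.000925). Parvb, the beta parvin, was at 0.828, 1.25 and 0.246 TPM at DIV3 and at 8.61, 5.72 and 5.19 TPM at DIV10 (log2 difference 2.09 ± 0.43, limma adjusted p = 0.000282). In both genes every DIV10 library was above every DIV3 library.

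Among the alpha subunits, Itga7 rose from 2.47, 1.84 and 2.72 TPM at DIV3 to 11.5, 27.3 and 6.21 TPM at DIV10 (log2 difference 2.04 ± 0.46, limma adjusted p = 0.000684). Itgav, the partner of several beta subunits, was at 5.36, 5.07 and 3.84 TPM at DIV3 and at 27.9, 10.6 and 11.1 TPM at DIV10 (log2 difference 1.48 ± 0.29, limma adjusted p = 0.00015). The DIV10 values of Itgav and Itga7 spread widely, with 1 library well above the others in each, yet the groups did not overlap. Itga5, the fibronectin receptor subunit, rose by 0.89 on the log2 scale (SE 0.34, limma adjusted p = 0.0396), a call lost in most fits without 1 library, as given above. Itga3, Itga4 and Itga6 were not past the threshold.

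Among the beta subunits, Itgb5 rose from 4.28, 3.84 and 2.91 TPM to 17.2, 8.26 and 14.4 TPM (log2 difference 1.57 ± 0.31, limma adjusted p = 0.000162). Itgb3 was at 1.18, 0.795 and 0.841 TPM at DIV3 and at 4.52, 4.41 and 3.50 TPM at DIV10 (log2 difference 1.41 ± 0.32, limma adjusted p = 0.000849). Itgb3 and Itgb5, each of which pairs with Itgav in a vitronectin receptor, and Itgav itself were each higher in every DIV10 library than in any DIV3 library. Itgb4, the partner of Itga6 in hemidesmosomes, rose by 1.56 (SE 0.42, limma adjusted p = 0.00406) from a mean of 0.483 TPM. Itgb1 and Itgb8 were not past the threshold.

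The other plaque proteins that rose from DIV3 to DIV10 were both talins, Tns1, Tns2, Parva, Lims2 and Fermt2, with log2 differences between 0.66 (Fermt2, a kindlin) and 1.47 (Tns2). Fblim1, which encodes migfilin, a binding partner of filamin and of kindlin, was at 19.2, 20.2 and 15.4 TPM at DIV3 and at 1.25, 9.42 and 5.50 TPM at DIV10, and fell by 1.85 (SE 0.45, limma adjusted p = 0.00169). Cav1, which encodes the coat protein of caveolae, fell by 1.44 (SE 0.43, limma adjusted p = 0.00878). Vasp, which promotes actin elongation, fell by 0.52 (SE 0.19, limma adjusted p = 0.0322). For these 3 genes no DIV10 library reached the DIV3 range.

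**Figure D2:**
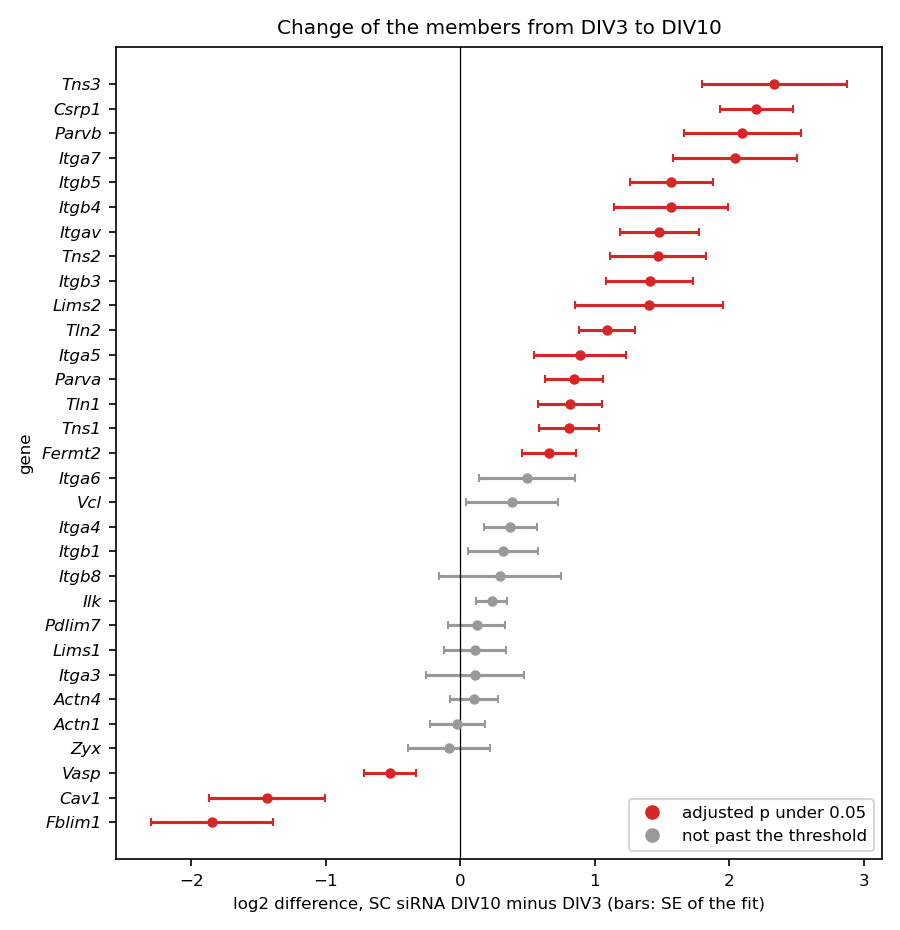
Log2 difference of each of the 31 tested members between SC siRNA cultures at DIV10 and DIV3 (points, bars are the SE of the fit, red marks an adjusted p under 0.05). The red points on the right run from Fermt2 at 0.66 to Tns3 at 2.33, and those on the left are Vasp, Cav1 and Fblim1.

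Of the single steps, DIV3 to DIV5 held 11 members that rose (35.5%) and 0 that fell, against 7.99% higher and 1.48% lower of all tested genes. The largest log2 differences of this step were those of Tns3 (2.35 ± 0.51), Itga7 (2.22 ± 0.43) and Parvb (1.91 ± 0.41), with limma adjusted p-values of 0.00257, 0.00101 and 0.00232. After rescaling by median ratio size factors, 8 members rose, and the split of all genes moved from 1139 higher and 211 lower to 739 and 473, with the median of all genes moving from 0.11 to −0.02. From DIV5 to DIV10, 4 members rose (12.9%) and 1 fell (3.23%), against 5.75% higher and 19.2% lower of all tested genes. These were Csrp1, Itga5, Itgb5 and Tln2, and Vasp, which fell by 0.71 (SE 0.18, limma adjusted p = 0.00383). After rescaling, 7 members rose and 1 fell, and the split of all genes moved from 820 higher and 2731 lower to 1127 and 1386, with their median moving from −0.16 to −0.02. Without all 4 DIV10 libraries low in dividing cell genes, 6 rose and 3 fell, against 8.58% higher and 23.7% lower of all genes. Without the SC library among them alone, 5 rose and 1 fell, with no share of all genes given for that fit. With single libraries left out, 5 of the 11 calls from DIV3 to DIV5 (Itga7, Parvb, Fermt2, Tns3 and Csrp1) and 1 of the 5 from DIV5 to DIV10 (Csrp1) held in every fit. The library numbers in the column names form series. All 4 SC libraries at DIV5 are of 1 series, which holds 1 of the 3 at DIV3 and 2 of the 3 at DIV10. Both steps are therefore in part comparisons between series, and no count of members with a term for the series is given for them.

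Genes of astrocytes moved with the same days: the summed level of the 9 astrocyte genes was 326 to 954 TPM at DIV3, 1407 to 8688 TPM at DIV5 and 1687 to 8659 TPM at DIV10 in SC siRNA cultures, and 6 of the 9 genes rose from DIV3 to DIV10. Oligodendrocyte lineage genes (7, summed) went from 898 to 1720 TPM at DIV3 to 1311 to 4660 TPM at DIV10. Microglia genes (6, summed) went from 25.9 to 40.1 TPM to 129 to 717 TPM. Fibroblast genes (7, summed) went from 44.5 to 291 TPM at DIV3 to 7.87 to 12.3 TPM at DIV10. The part of these cell type genes in the members' changes was not tested. Among related genes, 7 of 40 tested genes of adhesion signalling and other plaque proteins rose from DIV3 to DIV10 (17.5%) and 6 fell, against 16.1% and 19.1% of all genes, so that this list did not stand out from the background, with Sorbs3, which encodes vinexin, higher by 2.19 and Tes, which encodes testin, lower (log2 difference −2.20). Of 21 tested integrin ligands, 2 rose (9.52%, Spp1, osteopontin, and Lamb2, a laminin) and 9 fell (42.9%), with Col1a1 at a log2 difference of −4.03. Of 16 tested targets of the transcription factor SRF, 2 rose (12.5%) and 5 fell (31.2%). Of 3 other integrins tested, Itgb2 and Itgam, subunits of leukocytes, rose.

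Addition of BDNF was compared with no addition under each siRNA. At DIV3 in SC siRNA cultures, 1 of 31 members changed (3.23%), against 1.21% of all tested genes. Cav1 was at 9.98, 12.9 and 5.36 TPM without BDNF and at 3.20, 4.14 and 0.441 TPM with BDNF. Each value with BDNF was below every value without it, a 3.15-fold lower level on the log2(TPM + 1) scale (log2 difference −1.65 ± 0.43, limma adjusted p = 0.0415). This call was lost without a filter, with a pseudocount of 0.1, in the fit of only the groups compared, and in 4 of 6 fits that left out 1 library (without SC culture 1 or 2, or SC with BDNF culture 1 or 3), where the log2 difference ran from −2.01 to −1.09. Vcl, the gene of vinculin, was at 6.004, 4.48 and 9.63 TPM without BDNF and at 20.2, 12.6 and 18.8 TPM with it. The groups of Vcl did not overlap, but its log2 difference of 1.27 ± 0.34 was not past the threshold (limma adjusted p = 0.0523). The cultures are paired here, and in the fit with a block for the culture 2 members passed (6.45%, against 4.01% of all genes), as Vcl then had an adjusted p of 0.0259 by limma.

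In paxillin siRNA cultures at DIV3, BDNF gave 2 called members (6.45%), against 2.14% of all tested genes. Vcl was at 9.36, 7.19, 11.2, 5.26 and 4.79 TPM without BDNF and at 23.3, 17.3, 18.8 and 15.1 TPM with it. Vcl rose 2.36-fold (log2 difference 1.24 ± 0.28, limma adjusted p = 0.00846), and no library with BDNF was as low as any without. Cav1 was at 11.1, 11.3, 5.32, 6.83 and 6.43 TPM without BDNF and at 4.47, 3.63, 0.479 and 1.296 TPM with it, and fell by 1.54 (SE 0.35, limma adjusted p = 0.00953). Without cultures 10 and 11, the log2 differences were 1.06 for Vcl (limma adjusted p = 0.308) and −0.96 for Cav1 (limma adjusted p = 0.817), so neither passed. Over single libraries the call of Vcl held in every fit, and that of Cav1 was lost without culture 10 or culture 11 with BDNF.

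Itga6 showed the same kind of separation without passing the threshold. At DIV3 it was at 9.11, 10.3 and 11.3 TPM in SC siRNA cultures and at 19.4, 17.3 and 23.3 TPM with BDNF (log2 difference 0.89 ± 0.35, limma adjusted p = 0.303). With paxillin siRNA it was at 11.1, 12.4, 11.9, 10.5 and 10.8 TPM and at 21.5, 18.5, 26.4 and 17.4 TPM with BDNF (log2 difference 0.82 ± 0.29, limma adjusted p = 0.169). Every library with BDNF was above every library without it under both siRNAs, which were fitted with the same estimate of the spread. How many of all tested genes separate in this way was not counted. The separation of Itga6 is therefore a description of its values and not support for a change.

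**Figure D3:**
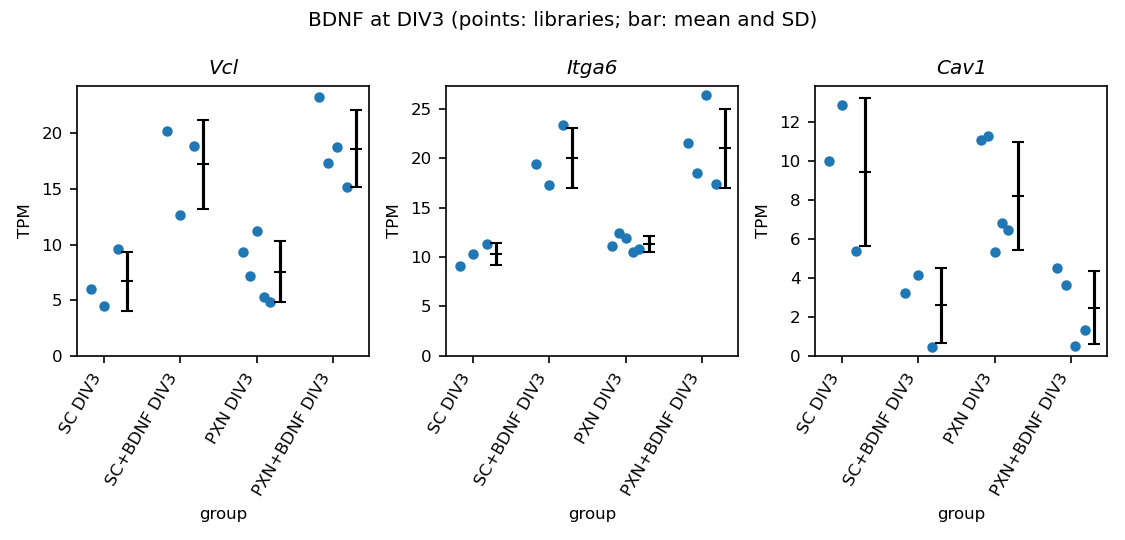
TPM of Vcl, Itga6 and Cav1 in each library at DIV3 (points), by siRNA and BDNF, with the mean and SD of each group (bars). Libraries with BDNF lie above those without for Vcl and Itga6 and below them for Cav1, with no overlap within a siRNA.

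For orientation, the sequences upstream of Vcl and Cav1, the 2 members called with BDNF, are given from RefSeq, build GRCm38.p6, 5′ to 3′ on the plus strand and ending at the base before the annotated gene. The SRF box (CArG box, both strands, 10 bases) is in capitals. Promoters were found for 29 of the 36 members, and the box was in 2 of these (Vcl and Fermt2), against 1.62% of the 27025 genes with a promoter of the same 250 bases. In Vcl (chr14:20929148-20929382) the box begins 227 bases before the transcription start of the promoter table. That start lies downstream of the annotated start of the gene, so only 235 of the 250 bases are printed for Vcl. In Cav1 (chr6:17306085-17306334) the box was not found in the 250 bases. The TEAD core (CATTCC or its complement) was in 4 of the 29 members (Actn4, Fblim1, Itgb1 and Vcl), against 14.4% of genes. A match describes letters and not a site.
Vcl: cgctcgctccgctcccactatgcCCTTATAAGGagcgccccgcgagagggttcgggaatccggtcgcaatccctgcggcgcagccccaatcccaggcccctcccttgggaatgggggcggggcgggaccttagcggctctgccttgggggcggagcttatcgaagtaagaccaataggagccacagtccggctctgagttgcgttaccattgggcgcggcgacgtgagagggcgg
Cav1: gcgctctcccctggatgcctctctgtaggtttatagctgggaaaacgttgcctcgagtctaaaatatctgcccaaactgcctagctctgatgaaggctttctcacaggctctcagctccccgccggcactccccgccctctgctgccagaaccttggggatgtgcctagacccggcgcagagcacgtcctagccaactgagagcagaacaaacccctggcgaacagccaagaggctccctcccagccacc

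Of 16 tested SRF targets, 1 rose with BDNF at DIV3 under each siRNA (6.25%). This was Egr1, an immediate early gene, with log2 differences of 4.14 ± 0.54 in SC siRNA and 4.17 ± 0.44 in paxillin siRNA cultures (limma adjusted p = 3.42e-06 and 2.72e-08). Of all 14250 tested genes, 147 rose with BDNF at DIV3 in SC siRNA and 187 in paxillin siRNA cultures. Fermt2, the other member with an SRF box, was not called with BDNF. The summed level of the dividing cell genes at DIV3 was 276 to 286 TPM with BDNF and 278 to 332 TPM without in SC siRNA cultures.

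At later days no member was called with BDNF. At DIV5, 0 of 31 members passed in SC siRNA cultures (0.0491% of all genes) and 0 in paxillin siRNA cultures (0.0140%). Vcl was at 9.29, 11.1, 7.18 and 10.6 TPM without BDNF and at 8.67, 9.38, 9.37 and 9.33 TPM with it in SC siRNA cultures, ranges that overlap. At DIV10, 0 members passed in SC siRNA cultures, where 0.00% of all genes did in limma (352 genes at an unadjusted p under 0.05), and 0 in paxillin siRNA cultures (0.0140%). The difference between the BDNF effects in paxillin siRNA and SC siRNA cultures at DIV5 was tested as well, and 0 members passed, as did 0.00% of all genes (116 at an unadjusted p under 0.05 in limma).

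Paxillin siRNA was compared with SC siRNA at each day. At DIV3, 0 of 31 members passed without BDNF and 0 with it, and 0.00% of all genes did in both, with 21 and 229 genes at an unadjusted p under 0.05 in limma. At DIV5 without BDNF, 4 members passed (12.9%, against 6.18% of all tested genes), 1 higher (3.23%, against 0.800%) and 3 lower (9.68%, against 5.38%). The median log2 difference of the members was −0.35, against −0.08 over all genes. The cultures are paired here too, and with a block 3 members were higher (9.68%, against 6.46% of all genes) and 6 lower (19.4%, against 16.2%). The library numbers in the column names form 3 series, and all 4 SC libraries at DIV5 are of 1 series, which holds only 2 of the 6 paxillin siRNA libraries, so this comparison is in part one between series. With a term for the series, 2 members were higher (6.45%, against 8.26% of all genes) and 6 lower (19.4%), where 1850 of the 14250 genes were lower.

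Tln1 was at 49.98, 79.6, 34.6 and 67.2 TPM with SC siRNA and between 25.7 and 32.2 TPM (median 29.9) with paxillin siRNA. The groups did not overlap, and Tln1 fell by 0.89 on the log2 scale (SE 0.19, limma adjusted p = 0.00511). Tns3 was at 10.1, 23.9, 4.27 and 29.5 TPM with SC siRNA and between 3.79 and 5.62 TPM (median 4.19) with paxillin siRNA, and fell by 1.45 (SE 0.43, limma adjusted p = 0.0376). Its SC library of culture 3 lay within the paxillin siRNA range. Itgb5 was at 6.52, 10.3, 3.43 and 8.68 TPM with SC siRNA and between 2.35 and 4.67 TPM (median 3.54) with paxillin siRNA, and fell by 0.78 (SE 0.25, limma adjusted p = 0.0476), again with culture 3 inside that range.

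Itga4 was the member that was higher. It was at 0.867, 0.595, 0.807 and 0.644 TPM with SC siRNA and between 1.14 and 1.99 TPM (median 1.40) with paxillin siRNA. No library overlapped, and Itga4 rose by 0.51 (SE 0.16, limma adjusted p = 0.0436) at levels near the filter of 1 TPM. With the block, Itga3 (log2 difference 0.90) and Fblim1 (1.17) were higher too, and Itgb8 (−1.08), Parva (−0.60) and Parvb (−0.80) lower, with limma adjusted p-values of 0.00365, 0.00869, 0.00411, 0.00332 and 0.0264.

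**Figure D4:**
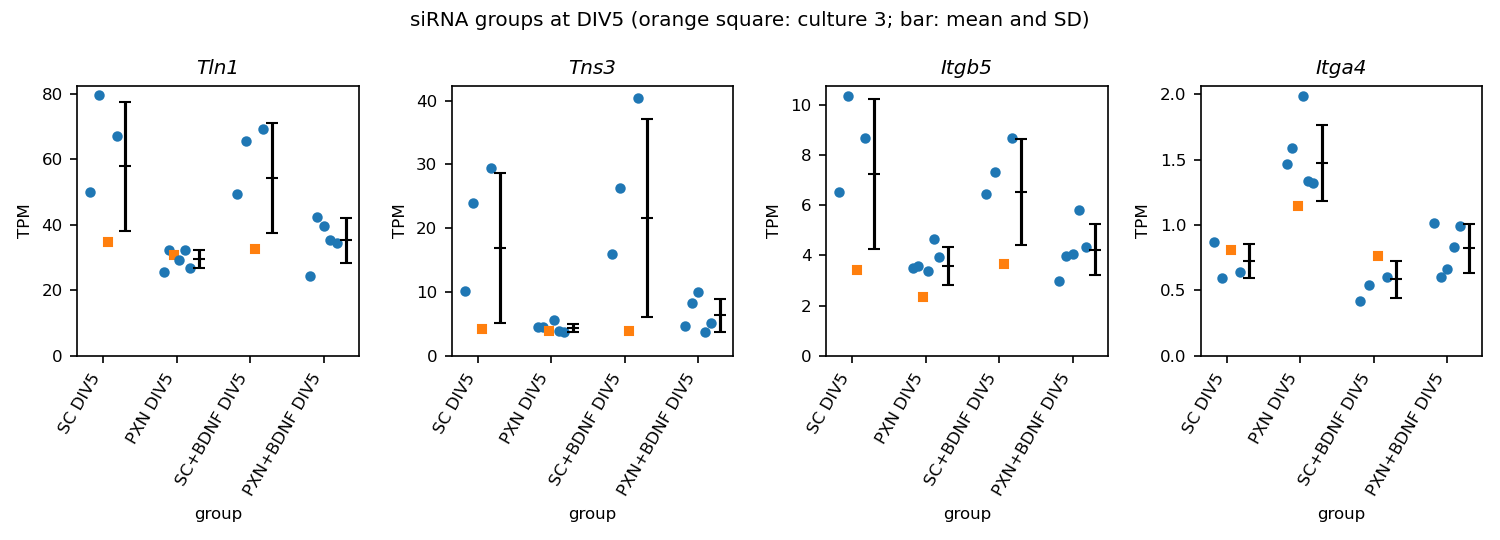
TPM of Tln1, Tns3, Itgb5 and Itga4 in each DIV5 library (points, orange squares are culture 3), by siRNA and BDNF, with the mean and SD of each group (bars). In the SC groups culture 3 is the lowest library for Tln1, Tns3 and Itgb5, at 34.6, 4.27 and 3.43 TPM without BDNF.

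Genes of several cell types moved with this comparison. The summed level of the astrocyte genes was 4448, 7323, 1407 and 8688 TPM in the SC siRNA libraries of cultures 1, 2, 3 and 4, and 1149 to 2060 TPM with paxillin siRNA. For the 7 genes of the oligodendrocyte lineage it was 3257, 5171, 1617 and 4267 TPM in the same SC libraries, and 1247 to 2242 TPM with paxillin siRNA. The 8 neuron genes went the other way, with 1551 to 3356 TPM in SC and 2451 to 3826 TPM in paxillin siRNA libraries. Culture 3, which had the low astrocyte and oligodendrocyte lineage sums, also had the low values of Tln1, Tns3 and Itgb5. Without the SC library of culture 3, 14 members passed, 3 higher and 11 lower, while 0 passed without that of culture 2, so the count depends on single libraries. The share of all genes is not given for these fits, so the 14 cannot be set against a background. Over the 10 fits without 1 library, the call of Tln1 was lost in 1 (without SC culture 2), that of Itga4 in 7, that of Tns3 in 8 and that of Itgb5 in 9. The part of these cell type genes in the differences was not tested. After rescaling by median ratio size factors, 1 member was higher and 1 lower, and the split of all genes moved from 114 higher and 766 lower to 151 and 259. Of the 40 tested adhesion signalling and other plaque genes, 0 rose and 7 fell (17.5%), with Ajuba, a LIM protein, at a log2 difference of −1.27. Of the 21 integrin ligands, 1 fell (4.76%, Lamb2, −1.04).

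With BDNF at DIV5, 0 members passed between paxillin siRNA and SC siRNA (0.596% of all genes, and 2661 at an unadjusted p under 0.05 in limma). Tln1 was at 49.5, 65.5, 32.6 and 69.3 TPM with SC siRNA and at 24.4, 42.3, 39.8, 35.4 and 34.4 TPM with paxillin siRNA, and these overlapped. At DIV10, 0 members passed without BDNF (2.58% of all genes) and 0 with BDNF (0.0211%). With the term for the library series, 2 members were higher and 1 lower at DIV5 with BDNF, against 4.06% and 8.70% of all genes, and 4 higher and 3 lower at DIV10 without BDNF, against 15.2% and 18.2%. Without cultures 10 and 11 the DIV10 comparison without BDNF gave 3 members higher and 7 lower, where 1707 of the 14250 tested genes were higher and 3551 lower. The paxillin siRNA libraries left in that fit, cultures 1 and 2, are both among the 4 low in dividing cell and astrocyte genes, and the part of those genes was not tested.

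The paxillin siRNA difference at DIV10 minus that at DIV5 was tested itself, and 2 of 31 members passed (6.45%), against 5.76% of all genes. Tln1 was at 47.4, 52.9 and 55.8 TPM with SC siRNA and at 64.98, 50.03, 71.5 and 76.5 TPM with paxillin siRNA at DIV10, so the difference moved by 1.21 ± 0.29 (limma adjusted p = 0.0197) from that at DIV5. Itga4 was at 1.58, 0.991 and 1.56 TPM with SC siRNA and at 0.358, 0.571, 1.10 and 1.34 TPM with paxillin siRNA, and its difference moved by −0.90 ± 0.24 (limma adjusted p = 0.0283). Without the 4 DIV10 libraries low in dividing cell genes, 1 member passed, and Itga4 did not (log2 difference −0.73, limma adjusted p = 0.0583). Over 17 fits without 1 library, the call of Tln1 was lost in 3 (without SC culture 1 at DIV10, or SC culture 2 or 4 at DIV5) and that of Itga4 in 6.

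The hippocampus counts, summed per gene, were used as support for the same list. Between 3162777 and 5687908 reads were counted per library, 30 of the 36 members passed the filter on counts, and Itga2, Itga9, Itga11, Itgb3, Itgb4 and Tln2 did not. From P10 to P15, 3 of the 30 rose (10.0%) and 1 fell (3.33%), against 3.83% higher and 1.98% lower of the 13614 tested genes. From P10 to P21, 3 rose (10.0%) and 5 fell (16.7%), against 8.99% higher and 6.65% lower. The matched share of reads was lower in the 4 P15 and P21 libraries numbered 2 (95.7% to 96.6%) than in the other 8 (98.2% to 99.4%). These 4 libraries stood apart in other ways as well. Rbfox3, which encodes the neuronal protein NeuN, was at 2.43 to 3.53 CPM in them, against 88.9 to 116 CPM in the libraries numbered 1 of the same ages, and Slc1a2, the astrocyte glutamate transporter, at 24.1 to 34.6 CPM, against 267 to 368 CPM. The summed level of 8 neuron genes was 5821 to 7933 CPM in the 4, against 6088 to 7309 CPM, so the low values were not shared by the whole list. Red blood cell genes summed to 663 to 3407 CPM, against 171 to 637 CPM. The part of these differences in the members' changes with age was not tested. Without these 4, P15 had 4 members higher and 1 lower of 31 (12.9% and 3.23%), against 9.45% and 7.46% of all genes, and P21 had 9 higher and 6 lower, against 18.7% and 16.4%.

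Csrp1 was counted with 339, 360, 315 and 413 reads at P10, 918, 1537, 973 and 735 at P15 and 1217, 883, 870 and 1429 at P21. In CPM, which scales by library size, it was at 62.1 to 77.4 at P10, 164 to 339 at P15 and 213 to 296 at P21, so that P10 stood apart from both later ages. The log2 differences from P10 were 1.80 ± 0.23 at P15 (edgeR adjusted p = 0.00257) and 1.94 ± 0.23 at P21 (edgeR adjusted p = 0.000497). Lims2, the second PINCH gene, was at 2.43, 4.03, 3.16 and 2.81 CPM at P10 and at 17.5, 12.2, 17.9 and 12.9 CPM at P21, on 13 to 87 reads (log2 difference 2.27 ± 0.23, edgeR adjusted p = 0.000198). Parvb rose by 1.16 at P21 (SE 0.27, edgeR adjusted p = 0.0158).

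Among the genes that fell, Itga1 was at 6.73, 5.86, 6.71 and 6.19 CPM at P10 and at 3.42, 2.81, 2.20 and 2.49 CPM at P21, on 9 to 36 reads. It fell by 1.21 (SE 0.21, edgeR adjusted p = 0.00384). Fblim1 was counted with 18, 14, 16 and 26 reads at P10 and with 2, 1, 6 and 1 reads at P21, so its log2 difference of −2.53 ± 0.49 (edgeR adjusted p = 0.00656) rests on few reads. Vasp, Cav1 and Ilk fell by 0.85, 0.81 and 0.56 (edgeR adjusted p = 0.0243, 0.0201 and 0.0385). Over 12 fits without 1 library, the call of Ilk was lost in 11 and those of Vasp and Cav1 in 6 each, while the other 5 calls at P21 held in every fit. Without the 4 libraries that stood apart, all 8 were called in the same direction. Of the 28 members tested in both data sets, 6 (Csrp1, Lims2, Parvb, Fblim1, Vasp and Cav1) were called in the same direction from DIV3 to DIV10 and from P10 to P21, and 0 in opposite directions. In the main fits, a further 10 were called in the cultures alone (Fermt2, Itga5, Itga7, Itgav, Itgb5, Parva, Tln1, Tns1, Tns2 and Tns3). Ilk was called in hippocampus alone, with a log2 difference of 0.23 in the cultures (limma adjusted p = 0.113). Without the 4 libraries that stood apart, Itgav, Tns3 and Tln1 of these 10 were also called at P21, with log2 differences of 1.09, 1.51 and 0.93. In the P21 libraries numbered 1, Itgav was at 13.9 and 18.3 CPM and Tns3 at 16.3 and 14.9 CPM. In those numbered 2, they were at most at 4.15 and 8.09 CPM. Which members were called in 1 data set alone therefore depends in part on these libraries. Calls in both data sets were not counted over all genes, so these counts have no background beside them.

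**Figure D5:**
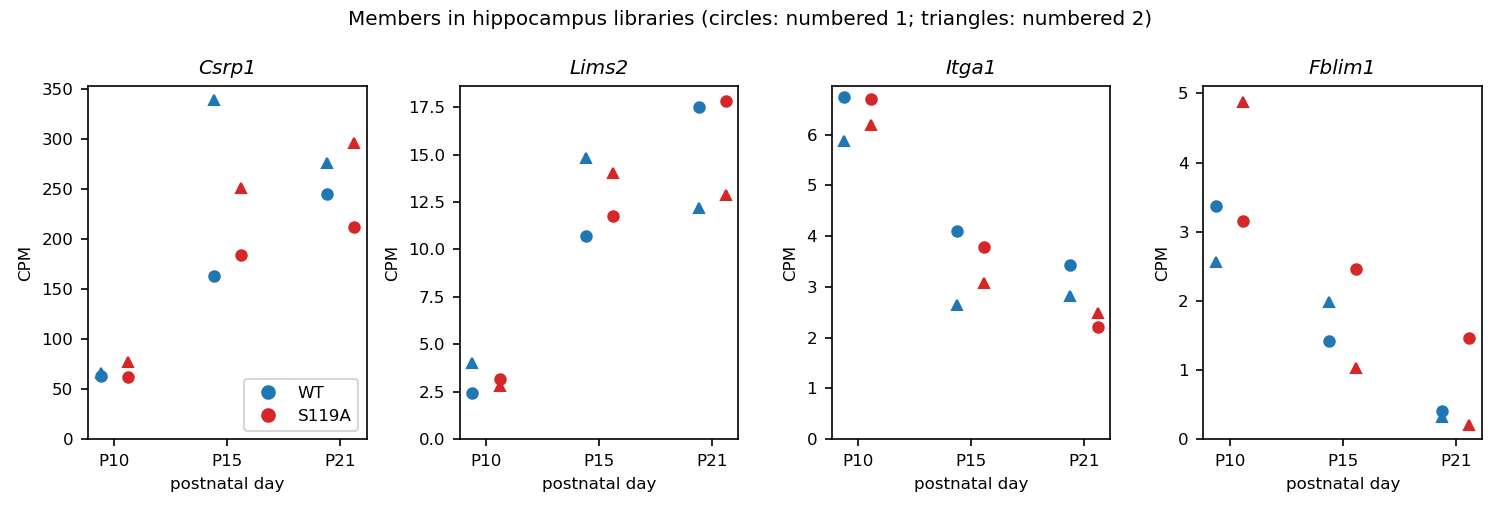
CPM of Csrp1, Lims2, Itga1 and Fblim1 in the 12 hippocampus libraries by age (blue WT, red S119A, circles numbered 1, triangles numbered 2). Csrp1 and Lims2 are lowest at P10, where Csrp1 is at 62.1 to 77.4 CPM, and Itga1 and Fblim1 are highest there.

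Cell type genes moved with age here as well. The 7 genes of the oligodendrocyte lineage summed to 598 to 700 CPM at P10, 589 to 1862 CPM at P15 and 3021 to 4585 CPM at P21. The 7 endothelial genes summed to 213 to 236 CPM at P10 and to 72.8 to 163 CPM at P21. Their part in the members' changes was not tested.

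Between S119A and WT, 0 of 30 members passed (0.00% of all genes, with 127 genes at an unadjusted p under 0.05 in edgeR and 0 passing in DESeq2). Pxn was counted with 58, 127, 39 and 68 reads at P10, 117, 74, 47 and 30 at P15 and 89, 24, 62 and 45 at P21 (each time WT and then S119A), and its log2 difference of −0.59 ± 0.29 did not pass (edgeR adjusted p = 1). The counts do not separate the alleles, so they give no check of the S119A knock-in. For the knockout that the label also names, they give only this difference of total Pxn, which was not past the threshold. The median log2 difference of the 30 members was 0.03, against −0.01 over all tested genes.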

How the data were processed

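RNA of cortical cultures and of the E15 samples (48 libraries together) and of hippocampus (12 libraries) was analysed. For the cultures, the authors aligned short reads to GRCm38 with STAR 2.7.10 and deposited TPM per gene from RSEM 1.3.3; each library sums to the same total, so the depth is unknown and no counting error can be given. For the hippocampus, the authors aligned Nanopore reads to mm10 with minimap2 and deposited counts of reads per transcript from IsoQuant, not normalized. Versions are from the submitters' processing notes.

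The members, lists and tests were chosen with earlier results of these data known. All members are named by rule, and of other lists the few with the largest changes. TPM were fitted as log2(TPM + 1) with limma 3.58.1 (eBayes with a trend), all 13 groups in 1 fit, over the 14250 genes that averaged 1 TPM or more. Fold changes are on this scale, which understates those of low genes. Transcript counts were matched by accession (119252 of 122459), summed per gene and tested with edgeR 4.0.16 (TMM, quasi-likelihood), age and genotype as terms; DESeq2 1.42.0 was an alternative. Benjamini-Hochberg adjusted p under 0.05 was the threshold. The fits were also tested on simulated data, where, given a known log2 change of 1 in 200 of 14250 genes (BDNF, SC siRNA at DIV3), limma recovered 63.5% with 4.51% of calls false, and with a log2 change of 2 (P21 against P10) edgeR recovered 79.0% of 200 of 13614 genes with 2.47% false. The simulated libraries varied independently around the mean of each gene, without shared deviations of cultures or library series. These shares therefore do not give the share of false calls in the real data.

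Culture numbers pair libraries where same-numbered deviations correlate above 0.1 in each of at least 3 pairs: this held for paxillin siRNA at DIV3 and DIV5 without BDNF (lowest r 0.244) and for BDNF at DIV3 and DIV5 (lowest r 0.289). R 4.3.3 and Python 3.11.15 were used. Alternatives were a pseudocount of 0.1, no filter, median ratio rescaling, fits of only the groups compared, blocks, terms for library numbers, and leaving out libraries. Protein sequences were not used here.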

Additional observations from a re-analysis of the deposited data

Results flagged for a closer look

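The members' levels were searched for libraries far from the others in groups of 4 to 6, which made 217 tests and marked 15 values; chance marks about 1 in 20 groups. Fblim1 in SC siRNA culture 3 at DIV5 was at 17.6 TPM, against 5.02 to 6.27 TPM in the others, and with BDNF it was at 13.1 TPM in culture 3, against 3.27 to 4.56 TPM. In both groups culture 3 also had the lowest astrocyte sum (1407 and 1514 TPM) and the lowest oligodendrocyte lineage sum (1617 and 1383 TPM).

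In paxillin siRNA with BDNF at DIV5, culture 10 was high for Itgb1 (73.2 TPM) and Itga6 (17.6 TPM), and culture 2 was low for Tln2 (2.43 TPM). In paxillin siRNA at DIV5, culture 10 was low for Vasp (22.2 TPM), culture 4 high for Itgav (8.48 TPM) and culture 3 low for Parvb (1.88 TPM). At DIV10 with paxillin siRNA, Vasp in culture 1 was low (9.23 TPM, against 18.9 to 20.9), Lims1 in culture 11 was low (5.06 TPM) and Cav1 in culture 10 was high (3.01 TPM). At DIV3, Ilk in paxillin siRNA culture 3 was low (166 TPM), and with BDNF Vasp in culture 10 was low (24.3 TPM) and Itgb5 in culture 1 high (3.69 TPM). Vcl in SC siRNA with BDNF culture 1 at DIV5 was low (8.67 TPM).

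The paxillin siRNA differences at DIV10 and DIV5 differed by a test of the difference itself for Tln1 (1.21 on the log2 scale) and for Itga4 (−0.90), as given in the results.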

How the results depend on the processing

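Each setting was changed alone, and all 896 values of called members kept their direction. Counts of called members moved more. From DIV3 to DIV10, where 19 members passed, the count lay between 16 and 18 when each library was left out. For DIV3 against E15 it lay between 0 and 3, for DIV5 against DIV3 between 5 and 17, for DIV10 against DIV5 between 1 and 6, and for paxillin siRNA between 0 and 14 at DIV5, 0 and 5 at DIV10, and 0 and 7 at DIV5 with BDNF. For BDNF it lay between 0 and 2 at DIV3 and 0 and 1 at DIV5 in SC siRNA cultures, and between 1 and 2 at DIV3 and 0 and 1 at DIV10 in paxillin siRNA cultures. For the paxillin siRNA difference at DIV10 minus that at DIV5 it lay between 0 and 5, for P15 between 2 and 5 and for P21 between 5 and 9. For most fits without 1 library the share of all genes is not given, so these ranges have no background beside them. Where 1 library was left in a group, it was assumed to vary like the other groups. Fits of only the groups compared called 0 members for DIV5 against DIV3, DIV10 against DIV5, paxillin siRNA at DIV5, BDNF in SC siRNA cultures at DIV3 and the difference of siRNA effects, with fewer samples behind each spread. In the same order, these fits called 0, 11, 2, 85 and 0 of all genes higher and 0, 0, 1, 19 and 0 lower. Without a filter the counts were 3 for DIV10 against DIV5, 1 for paxillin siRNA at DIV5, 0 for BDNF in SC siRNA at DIV3 (also 0 with a pseudocount of 0.1) and 2 for P15. Without a filter, in the same order, 1334, 69, 202 and 370 of all genes were higher and 2441, 584, 35 and 182 lower. Median ratio rescaling gave 8 for DIV10 against DIV5, 2 for paxillin siRNA at DIV5 and 2 for BDNF in SC siRNA at DIV3. After it, 1127, 151 and 163 of all genes were higher and 1386, 259 and 30 lower.

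With the culture number as a replicate block, 17 members passed for DIV5 against DIV3, 9 for paxillin siRNA at DIV5, 4 at DIV10, 8 at DIV5 with BDNF and 2 for BDNF in SC siRNA at DIV3. Of the 14250 tested genes, 1751 were higher and 437 lower for the first of these. For the others, in the same order, the numbers were 920 and 2313, 962 and 1764, 1078 and 2052, and 400 and 172. Only the second and last of these comparisons are paired. In the hippocampus the pairing rule of at least 3 pairs could not be met, with 2 pairs at each age. Same-numbered WT and S119A libraries deviated together at P15 (correlation 0.87) and P21 (0.86), but not at P10 (−0.01). The main fit holds no term for these shared deviations. With a block for the number, 14 members passed at P21. A term for the 4 later libraries that carry number 2 gave 13, and leaving these out gave 15. Of all genes, 1699 were higher and 1832 lower with the block, 1934 and 2077 with the term, and 2563 and 2253 without the 4 libraries. Without cultures 10 and 11 the counts were 2 for paxillin siRNA at DIV5, 10 at DIV10, 6 for the difference of siRNA effects, 2 for BDNF in SC siRNA and 0 in paxillin siRNA cultures at DIV3. In the same order, 148, 1707, 1374, 134 and 32 of all genes were higher and 641, 3551, 2024, 20 and 1 lower. A term for the series of library numbers gave 8, 7 and 3 for paxillin siRNA at DIV5, DIV10 and DIV5 with BDNF, 4 for the difference of siRNA effects and 2 for BDNF in SC siRNA at DIV3. Here 1177, 2169, 579, 1282 and 271 of all genes were higher and 1850, 2599, 1240, 1041 and 72 lower. Leaving out the 4 DIV10 libraries low in dividing cell genes, chosen after seeing the data, gave 9 for DIV10 against DIV5 and 1 for the difference of siRNA effects. Of all genes, 1223 were higher and 3381 lower in the former, and 510 and 136 in the latter. The Pxn difference between siRNAs at DIV10 turned direction without SC culture 1 (range −0.011 to 0.52 over single libraries), and with BDNF at DIV10, where it was −0.06, it was 0.13 with the block, 0.15 with the library number term, 0.12 without the 4 libraries and −0.20 to 0.12 over single libraries. The cause of these moves was not tested. TPM hold no depth, and genes near 1 TPM or with few hippocampus reads (Itga4, Fblim1, Itga1) are limited most.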
